A study of Homo sapiens with 8 samples.

Results

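Estrogen receptor (ER) binding was measured by chromatin immunoprecipitation and sequencing in LY2 cells, an established ER-positive breast cancer line that is resistant to endocrine therapy. The sites described here carried an estrogen response element (ERE) at their peak summit and lay outside the body of every protein-coding gene. There were 232 such sites among 25365 ER sites in all, 13519 of which lay outside protein-coding genes and 484 of which carried an element. A site was the merged stretch of the peaks of 4 ER libraries that overlapped by at least 1 bp, and its summit was that of the peak with the lowest q-value. An element was the inverted repeat GGTCANNNTGACC, where 1 of the 10 fixed bases was allowed to differ, lying wholly within 100 bp of the summit. The rule used no difference between conditions.

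Cells were transfected with a nontargeting siRNA (siCtrl, replicates 2 and 3) or a pooled siRNA against CDK12 (siCDK12, replicates 3 and 4) for 48 h, after serum depletion. All 4 libraries came from cells that received estradiol at 1 µmol/L for 1 h, free of 4-hydroxytamoxifen, so every comparison below is between estradiol-treated cells. LY2 is a single line, the labels do not say that replicates came from separate cultures, and the study's methods state that a divergent replicate of each condition was left out, so spread between libraries may be technical. CDK12 itself cannot be read from peak lists, and the depth of the knockdown was not analysed here. The siCtrl replicate 2 list stood apart by its length, with 12021 peaks at a q-value under 0.05 against 4819 to 5224 in the other 3 libraries, and the number of sites, their ratio between conditions and the pileup ratio are also given without it. The number of reads behind each list is unknown here.

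ER is a ligand-activated nuclear receptor that binds DNA as a dimer. Each partner contacts one half-site of the element, and the 2 half-sites face each other across a 3-base spacer. In breast cancer cells most ER binding lies away from promoters, at distal enhancers that can contact genes over long distances, often with the pioneer factor FOXA1 and with GATA3. Some of these enhancers lie inside genes for long noncoding RNAs (lncRNAs). CDK12 is a cyclin-dependent kinase that phosphorylates the tail of RNA polymerase II during elongation. The comparison asks whether ER was found at these distal elements to a like extent once CDK12 was depleted.

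The elements of sites with a peak in all 4 libraries are shown first, because these were the only ones whose level could be read in every library. There were 7 such sites, and the element of the one near LAPTM4B is not printed. Each is written with 14 bases on either side, from the forward strand of GRCh38, with the 2 half-sites in capitals, and is named by the nearest protein-coding gene start. Each of the 6 printed departed from the consensus at 1 base, written with the consensus base first and positions counted from 1 at the 5′ end of the 13-base element.
IER3 (G2C): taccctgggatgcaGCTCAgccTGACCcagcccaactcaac
UMODL1 (A11C): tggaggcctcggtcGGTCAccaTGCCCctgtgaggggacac
CCDC201 (A5T): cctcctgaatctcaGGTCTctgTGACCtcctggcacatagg
SMAD7 (A11T): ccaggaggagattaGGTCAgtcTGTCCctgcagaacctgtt
SCOC (G10A): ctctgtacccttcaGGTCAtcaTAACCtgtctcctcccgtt
MPPED1 (T3G): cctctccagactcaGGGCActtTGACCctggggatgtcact

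The next elements belong to the strongest sites listed by both siCtrl but by neither of the siCDK12 libraries, and are shown as the strongest examples of that combination. Those near MANEAL, PKDCC and MED13L were perfect, and the others had the 1 mismatch given after the name.
PFDN4 (C4G): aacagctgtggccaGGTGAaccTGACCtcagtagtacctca
MANEAL: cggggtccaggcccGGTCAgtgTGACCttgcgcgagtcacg
SRRM2 (T3G): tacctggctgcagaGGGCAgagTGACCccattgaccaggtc
PKDCC: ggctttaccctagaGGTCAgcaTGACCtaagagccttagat
FOXL3 (T3G): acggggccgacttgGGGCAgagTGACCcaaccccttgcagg
GPAM (C4G): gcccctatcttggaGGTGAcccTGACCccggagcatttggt
FGF3 (A11C): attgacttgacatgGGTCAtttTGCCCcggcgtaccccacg
MED13L: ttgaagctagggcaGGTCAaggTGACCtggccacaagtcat
MAN1A1 (A5G): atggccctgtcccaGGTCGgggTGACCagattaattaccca
A pair of sites near textbook estrogen-regulated genes, chosen by gene and not by strength, showed the same combination of libraries.
KRT13 (A11G): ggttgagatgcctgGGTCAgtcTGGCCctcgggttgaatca
CCND1 (G1A): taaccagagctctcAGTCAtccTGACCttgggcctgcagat

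The surroundings of an element differed between sites. The stretch around the summit of the MPPED1 site, chr22:43391334-43391534, held 2 elements side by side, both in capitals, and that around the MANEAL summit, chr1:37793365-37793565, held a single perfect one.
MPPED1 window: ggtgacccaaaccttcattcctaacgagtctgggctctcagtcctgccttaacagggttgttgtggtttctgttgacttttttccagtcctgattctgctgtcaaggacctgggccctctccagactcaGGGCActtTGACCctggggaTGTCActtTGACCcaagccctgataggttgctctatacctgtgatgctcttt
MANEAL window: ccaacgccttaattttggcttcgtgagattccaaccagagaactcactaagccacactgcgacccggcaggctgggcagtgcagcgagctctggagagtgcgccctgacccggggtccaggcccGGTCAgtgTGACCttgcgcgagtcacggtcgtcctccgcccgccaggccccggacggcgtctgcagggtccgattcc

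Perfect elements were a minority. They were found at 29 of the 232 sites (12.5%, 95% exact binomial interval 8.53 to 17.5), at 14 of 149 sites with a peak in 1 library (9.40%, 5.23 to 15.3) and at 15 of 83 sites with a peak in 2 or more (18.1%, 10.5 to 28.0). Intervals here and below cover counting error only, and treat sites as independent. Where there was a mismatch, it lay most often at the third base of a half-site, in 73 of 203 elements (36.0%, 29.4 to 43.0). In sites with 2 or more libraries it was there in 31 of 68 (45.6%, 33.5 to 58.1). Windows of the same length 1000 bp away from the summits of sites outside protein-coding genes gave 24 of 98 (24.5%, 16.4 to 34.2), whose interval overlaps both others. The base found in place of T at that position, read along the half-site, was G in 17 of 28 sites with 2 or more libraries, C in 8 and A in 3, leaving out 1 chromosome whose sequences were not used.

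More than 1 element within the window was seen at 12 of the 83 sites with 2 or more libraries (14.5%, 7.70 to 23.9) and at 0 of the 149 with 1 library, where counting error allows up to 2.45%. Among them, the sites near CTAG2, MSX2, MPPED1, FOXL3, WHRN, SLC41A2, GNG13, KCTD6, PPP1R26 and DDX18 held 2 each, and the site near LAPTM4B held 4. All 12 were listed by both siCtrl libraries. These names were chosen after the values were seen.

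The element sat close to the summit. The median distance between its centre and the summit was 29 bp over all 232 sites, 34 bp over those with 1 library and 21 bp over those with 2 or more, against 45 bp from the centre of the windows beside the sites (100 windows with an element). Within 20 bp lay 40 of 83 elements in sites with 2 or more libraries (48.2%, 37.1 to 59.4), 50 of 149 in sites with 1 (33.6%, 26.0 to 41.7) and 15 of 100 in the windows beside (15.0%, 8.65 to 23.5). Sites inside protein-coding genes, 252 in all, had a median of 24 bp, and of 16.5 bp for the 98 with 2 or more libraries.

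**Figure D1:**
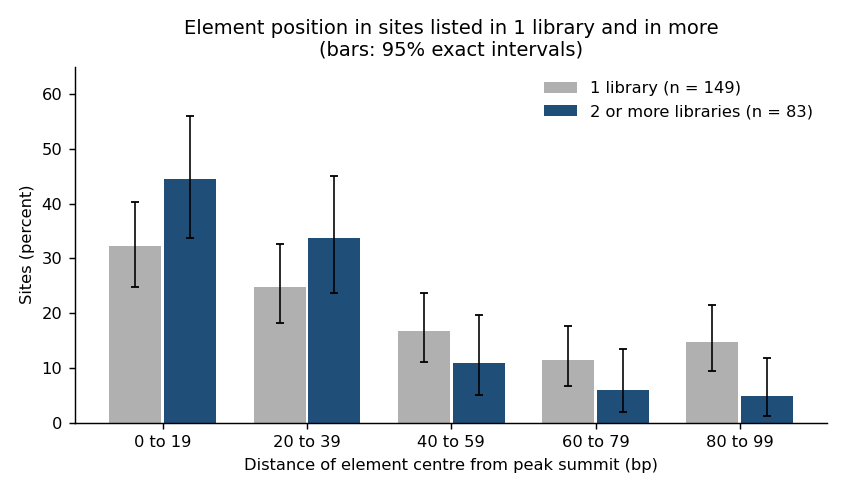
The horizontal axis gives the distance of the element's centre from the summit in bins of 20 bp and the vertical axis the percent of sites, in grey for the 149 sites listed in 1 library and in blue for the 83 listed in 2 or more, with 95% exact binomial intervals. Of the latter 44.6% fell in the nearest bin and 4.82% in the farthest, against 32.2% and 14.8% of the former.

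An element was more common at sites outside protein-coding genes than beside them. It was found at 232 of 13519 sites (1.72%, 1.504 to 1.95) and in 100 of 27038 windows centred 1000 bp to either side (0.370%, 0.301 to 0.450), a share that gives 50 elements in 13519 sites. The share depended on how many libraries listed the site. It was 1.16% of 12843 sites with 1 library (0.982 to 1.36), 10.7% of 543 with 2 (8.21 to 13.6), 17.6% of 102 with 3 (10.8 to 26.4) and 22.6% of 31 with 4 (9.59 to 41.1). The windows beside them stayed between 0% and 0.490%.

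Among sites outside protein-coding genes listed by 1 library, those of both siCtrl libraries held an element more often than the windows beside them, with intervals that did not overlap. For siCtrl replicate 2 the share was 1.52% (1.23 to 1.87) of 6036 sites, against 0.381% of windows (0.279 to 0.508). For siCtrl replicate 3 it was 1.21% (0.785 to 1.78) of 2065, against 0.387% (0.222 to 0.628). For siCDK12 replicate 3 it was 0.564% (0.301 to 0.963) of 2303, against 0.413% (0.249 to 0.643), and for siCDK12 replicate 4 it was 0.779% (0.470 to 1.21) of 2439, against 0.287% (0.157 to 0.481). For both siCDK12 libraries the interval of the sites overlapped that of the windows, in replicate 4 only from 0.470 to 0.481. Overlap of intervals is no test, and does not show that these siCDK12 sites held no more elements than the windows. Of the 55 sites outside protein-coding genes that both siCDK12 lists held and neither siCtrl list did, 0 carried an element. Counting error allows up to 6.49% there. Of the 218 sites with the opposite combination, 56 carried one (25.7%, 20.03 to 32.0). The 2 combinations were not matched for strength. Over all sites, 808 and 468 reached a -log10 q of 5 in siCtrl, against 130 and 109 in siCDK12.

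**Figure D2:**
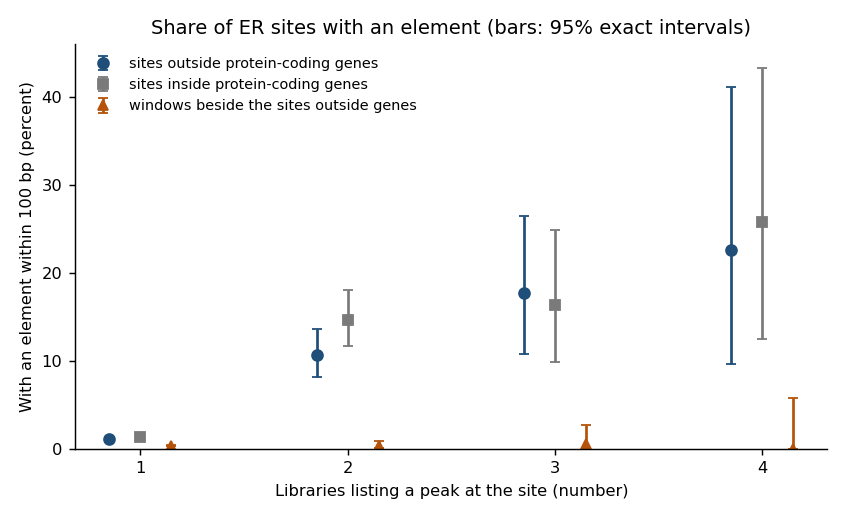
The horizontal axis gives the number of libraries listing a peak at the site and the vertical axis the percent with an element within 100 bp, for sites outside protein-coding genes, sites inside them and the windows beside the former, with 95% exact binomial intervals. The share outside genes was 1.16% with 1 library and 22.6% with 4, that of the windows stayed under 0.5%, and the intervals of sites inside and outside genes overlapped at each number.

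Of the 232 ERE-bearing sites outside protein-coding genes, 149 had a peak in 1 library, 58 in 2, 18 in 3 and 7 in all 4. The single-library sites were 92 of siCtrl replicate 2, 25 of siCtrl replicate 3, 13 of siCDK12 replicate 3 and 19 of siCDK12 replicate 4. Both siCtrl libraries and neither siCDK12 library listed 56 sites (24.1%, 18.8 to 30.2), against 1.79% of all 25365 sites. The opposite combination held 0 of 232 sites, which allows up to 1.58%, against 0.343% of all sites. All 4 libraries listed 7 (3.02%, 1.22 to 6.12), against 0.26% of all sites. For ERE-bearing sites inside protein-coding genes the same 3 counts were 68, 0 and 9 of 252.

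Most ER sites had a peak in a single library, so the share lost is better read among sites that both siCtrl libraries listed. There it was 56 of 81 ERE-bearing sites outside genes (69.1%), against 68.2% of all 667 such sites, 72.3% of 94 ERE-bearing sites inside genes and 66.9% of 242 sites outside genes without an element. The share lost was near the background, and is no result about the ERE-bearing sites. Without siCtrl replicate 2 the rule found 139 sites, 78 of which had a peak in siCtrl replicate 3 and in neither siCDK12 library. Without siCtrl replicate 3 it found 207, 148 of which had a peak in siCtrl replicate 2 alone of the remaining libraries. None of the 56 sites was listed in a siCDK12 library at a higher q-value either.

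**Figure D3:**
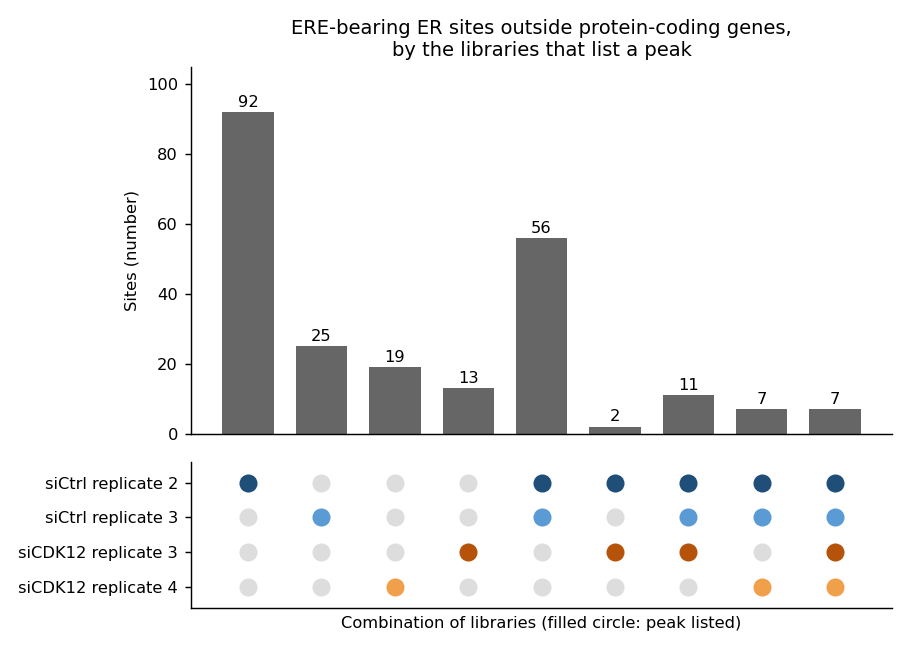
Bars give the number of ERE-bearing sites outside protein-coding genes in each combination of libraries, and filled circles under a bar mark the libraries that listed a peak. The tallest bars are siCtrl replicate 2 alone with 92 sites and both siCtrl libraries with 56, and no site was shared by the siCDK12 libraries without both siCtrl libraries.

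Counted per library, ERE-bearing sites outside genes with a peak numbered 175 in siCtrl replicate 2, 106 in siCtrl replicate 3, 33 in siCDK12 replicate 3 and 33 in siCDK12 replicate 4. Both siCDK12 counts lay under both siCtrl counts, at a ratio of the means of 0.235, but with 2 libraries against 2 the two-sided exact permutation test gave p = 0.333, the smallest it can give, so no difference of this design can pass a threshold of 0.05. The ratio was 0.332 without siCtrl replicate 2. As a share of each list, the sites made up 1.46% (1.25 to 1.69) of the siCtrl replicate 2 peaks, 2.14% (1.75 to 2.58) of those of siCtrl replicate 3, 0.685% (0.472 to 0.960) and 0.632% (0.435 to 0.886) of the siCDK12 lists.

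The ratio of siCDK12 over siCtrl was further below 1 at stronger peaks, among these sites and over all 25365. Where the -log10 q reached 5, the sites numbered 89 and 65 under siCtrl, 12 and 2 under siCDK12 (ratio 0.0909, exact permutation p = 0.333). At 10 or more they numbered 58 and 42 against 4 and 1 (ratio 0.05, exact permutation p = 0.333). ERE-bearing sites inside genes gave ratios of 0.234, 0.0977 and 0.0619 at the same 3 levels. Sites outside genes without an element gave 0.599, 0.209 and 0.0391, the first from 6390 and 2374 against 2576 and 2672 sites, which overlapped between the conditions. Outside genes, the ratios with and without an element were thus furthest apart over all peaks, and at 10 or more their order was reversed. Of the sites without an element, 95.5% had a peak in 1 library only, against 64.2% of the ERE-bearing sites. Over all 25365 sites the 3 ratios were 0.592, 0.187 and 0.0779.

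A peak chosen in a single library was looked up in the others, each library using its own summits, so that the choice did not draw on the libraries searched. Of 175 ERE-bearing peaks outside genes in siCtrl replicate 2, 80 overlapped a peak of siCtrl replicate 3 (45.7%, 38.2 to 53.4), 19 one of siCDK12 replicate 3 (10.9%, 6.66 to 16.4) and 16 one of siCDK12 replicate 4 (9.14%, 5.32 to 14.4). Of 104 chosen in siCtrl replicate 3, 79 were in siCtrl replicate 2 (76.0%, 66.6 to 83.8), and 19 (18.3%, 11.4 to 27.1) and 15 (14.4%, 8.30 to 22.7) in the siCDK12 libraries. The choice made in siCDK12 also led to siCtrl more often than to the other siCDK12 library. Of 35 peaks in siCDK12 replicate 3, 20 and 19 were in the siCtrl libraries and 8 in siCDK12 replicate 4, and of 35 in siCDK12 replicate 4, 16 and 15 were in siCtrl and 8 in siCDK12 replicate 3.

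Strong peaks were found again more often. Where the -log10 q in siCtrl replicate 2 reached 5, 73 of 88 ERE-bearing peaks outside genes were in siCtrl replicate 3 (83.0%, 73.4 to 90.1), against 16 (18.2%, 10.8 to 27.8) and 15 (17.0%, 9.87 to 26.6) in siCDK12. Peaks outside genes without an element at the same level were in siCtrl replicate 3 in 43.9% of 310 cases (38.3 to 49.6) and in siCDK12 in 19.03% (14.8 to 23.9) and 16.1% (12.2 to 20.7). The intervals with and without an element did not overlap in siCtrl replicate 3 and overlapped in both siCDK12 libraries. The groups were not matched for strength above that level. In siCtrl replicate 2, 58 of 89 ERE-bearing sites outside genes at 5 or more also reached 10, against 118 of 309 without an element. Chosen at that level in siCDK12, all 12 peaks of replicate 3 and both of replicate 4 were in both siCtrl lists.

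**Figure D4:**
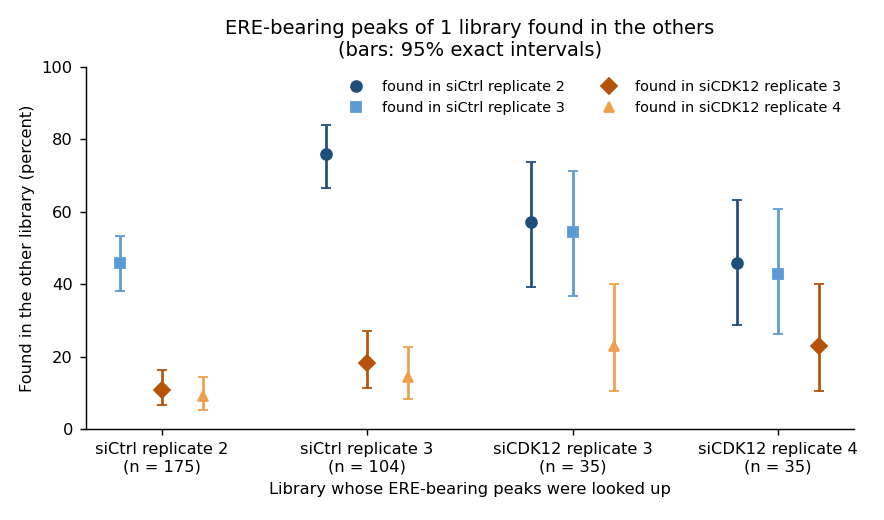
Each group of points on the horizontal axis is the library whose ERE-bearing peaks outside genes were looked up, and the vertical axis gives the percent found in each other library, with 95% exact binomial intervals. From either siCtrl library the other siCtrl library lies above both siCDK12 libraries, at 45.7% and 76.0%, and from siCDK12 the siCtrl libraries lie at 42.9% to 57.1% against 22.9%.

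The level of ER at a site was read as the pileup, the number of fragments stacked at the summit, which was solved from the deposited fold and p-value, and as the deposited fold of that pileup over the local background. Only 7 sites could be read in all 4 libraries. Their median pileups were 77 and 66 under siCtrl, 29 and 20 under siCDK12 (ratio of the means 0.343, two-sided exact permutation p = 0.333), and their median fold was 16.8 and 15.6 against 8.20 and 3.68 (ratio 0.367, p = 0.333 by the exact permutation test). At all 7 sites both siCDK12 pileups lay below both siCtrl pileups, as they did at 71.2% of the 66 sites of all kinds with a peak in all 4 libraries. Inside protein-coding genes they did so at 8 of 9 ERE-bearing sites, with a pileup ratio of 0.302 and a fold ratio of 0.266. Over the 66 sites the pileup ratio was 0.431 and the fold ratio 0.332. The lower level under siCDK12 was thus not particular to the ERE-bearing sites outside genes. Without siCtrl replicate 2 the pileup ratio was 0.364 over 8 sites, and without siCDK12 replicate 3 it was 0.394 over 14. A change in ER per cell and a change in the share of fragments recovered cannot be told apart in these values.

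The site with the lowest q-value of the 232 lay at chr6:30751584-30751880, inside the lncRNA gene HCG20 and 7186 bp upstream of IER3, an immediate early gene that modulates apoptosis. Its pileup was 167 in siCtrl replicate 2, 109 in siCtrl replicate 3, 56 in siCDK12 replicate 3 and 31 in siCDK12 replicate 4. The fold followed the same order, at 35.6, 14.3, 7.35 and 5.49. The conditions did not overlap, and the local background of 3.72 to 6.76 fragments overlapped between them.

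The site at chr21:42060006-42060358, 2785 bp upstream of UMODL1, which encodes a protein related to uromodulin, had pileups of 136, 93, 39 and 24 in the same order of libraries. The site at chr7:45876395-45876710, 3497 bp upstream of CCDC201, had 115, 99, 42 and 34, and kept the highest siCDK12 folds, 11.8 and 7.58. Both lay outside gene bodies of any type, and at both the siCtrl libraries were high and the siCDK12 libraries low.

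SMAD7 encodes an inhibitor of TGF-β signaling. The site 40077 bp upstream of its start, chr18:48990883-48991264, had pileups of 77 and 66 in siCtrl and 22 and 19 in siCDK12, and its element lay 5 bp from the summit. LAPTM4B encodes a lysosomal membrane protein, and the site 10686 bp upstream of it, chr8:97764203-97764756, had 72 and 45 against 29 and 20. SCOC encodes a short coiled-coil protein of the Golgi, and the site 6956 bp upstream, chr4:140250203-140250478, had 49 and 51 against 15 and 19. At the SCOC site the 2 replicates of each condition were within 4 fragments of each other.

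The MPPED1 site with paired elements, chr22:43391231-43391616, lay 19762 bp upstream of MPPED1, which encodes a metallophosphoesterase domain protein. Its pileups were 46 and 41 in siCtrl and 18 and 14 in siCDK12, on a local background of 1.299 to 1.93 fragments, the lowest of the 7 in each library. A second ERE-bearing site with a peak in siCtrl replicate 2 alone (pileup 13) lay 1961 bp away.

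At 18 further sites both siCtrl libraries and 1 siCDK12 library listed a peak, siCDK12 replicate 3 at 11 and siCDK12 replicate 4 at 7. The siCDK12 pileup lay under both siCtrl pileups at 18 of 18, against 50.7% of all 146 sites with such a combination. The ratio of the siCDK12 pileup to the mean of siCtrl had a median of 0.437 and ran from 0.275 to 0.605. Over the 146 the median was 0.884. The 18 and the 146 were not matched for strength. A site weak in siCtrl enters this combination only if its siCDK12 peak still passes the threshold, which keeps its ratio high. Among sites listed by both siCtrl libraries, the median fold was 8.66 and 6.29 at ERE-bearing sites outside genes. At all 667 such sites it was 5.82 and 4.81. The 17 ERE-bearing sites inside genes with such a combination were not read this way. Whether these values are particular to sites outside genes was therefore not tested. By fold the order did not hold near EFNA5, at 5.96 in siCDK12 replicate 3 against 4.16 in siCtrl replicate 3. The 18 sites were named after their values were seen.

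PREX1 encodes an activator of the GTPase Rac, and the site 255616 bp downstream of its start, chr20:48572257-48572509, had pileups of 197 and 160 in siCtrl and 54 in siCDK12 replicate 3. Its local background was 13.3 to 16.2 times that of the genome in these libraries. The site 170 bp upstream of HSPB8, a small heat shock protein gene, chr12:119171240-119171529, was the nearest to a promoter among sites with 2 or more libraries and had 62 and 50 against 21. TSKU encodes a secreted proteoglycan, and the site 9503 bp upstream, chr11:76772621-76772952, had 57 and 74 in siCtrl and 18 in siCDK12 replicate 4.

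A pair of sites with perfect elements lay 91257 bp apart inside the lncRNA gene LINC00276 on chromosome 2. The one at chr2:14270116-14270435 had pileups of 28 and 42 in siCtrl and 17 in siCDK12 replicate 3. The one at chr2:14178849-14179115 had 50 and 44 and, in siCDK12 replicate 4, 14. Each was thus listed by a different siCDK12 library. No perfect element was among the sites with a peak in all 4 libraries, and 5 were among the 18 with 3.

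**Figure D5:**
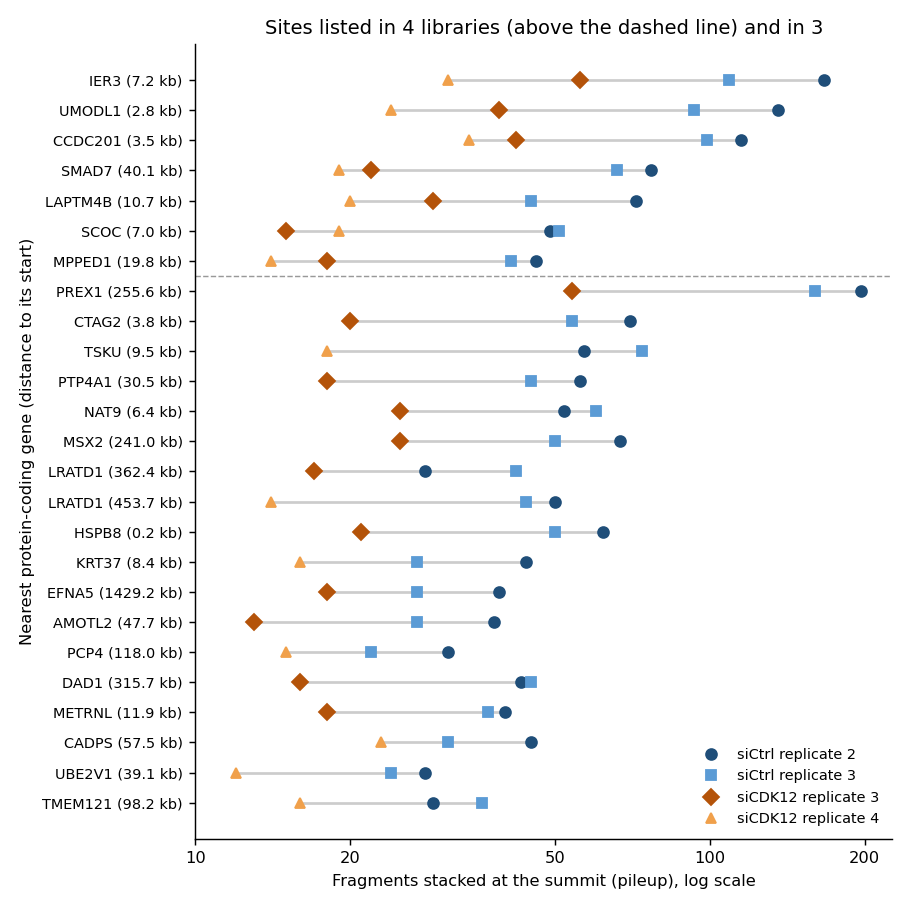
The horizontal axis gives the fragments stacked at the summit on a log scale, and each row is a site named by its nearest protein-coding gene and the distance to its start, with 1 point per library that listed a peak. In all 7 rows above the dashed line and all 18 rows below it, the siCDK12 points lie to the left of both siCtrl points.

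The 56 sites listed by both siCtrl libraries and neither siCDK12 library had lower median levels in siCtrl than the 25 sites also listed in siCDK12. Their pileup had a median of 23 in siCtrl replicate 2 (10 to 226) and of 19 in siCtrl replicate 3 (8 to 198), and 49 and 36 of them reached a -log10 q of 5. The median fold was 7.36 (3.23 to 23.2) and 5.30 (3.62 to 13.6). The 11 sites also found in siCDK12 replicate 3 had median siCtrl folds of 11.4 and 9.54, and the 7 also found in siCDK12 replicate 4 had 8.97 and 6.69. A site of low level can fall under the threshold with a small change, so absence from a siCDK12 list does not show that ER was absent.

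The strongest of the 56 by mean rank in siCtrl lay 12596 bp upstream of PFDN4, a subunit of the prefoldin chaperone, at chr20:54195365-54195630. Its pileups of 226 and 198 were the highest of all 232 sites, and stood on a local background 27.2 times that of the genome in each siCtrl library. The fold, which takes this background into account, was 7.97 and 6.12. The site 382 bp upstream of MANEAL, chr1:37793329-37793602, a gene of a Golgi mannosidase family, had the highest fold of the 56, 23.2 and 13.6, from pileups of 52 and 32 on a background near that of the genome.

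A site inside the lncRNA gene PVT1, chr8:128141951-128142205, lay 406640 bp downstream of MYC, the nearest protein-coding start and a proto-oncogene that estrogen induces. It had pileups of 91 and 58 and folds of 8.35 and 6.83, with its element 1 bp from the summit. The site 7748 bp upstream of SRRM2, a gene of a splicing co-factor, lay inside the antisense RNA SRRM2-AS1 (chr16:2744732-2745038) and had 47 and 43. FOXL3 encodes a forkhead protein, and the site 15786 bp downstream of its start (chr7:305834-306114) had 46 and 42.

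GPAM encodes the mitochondrial enzyme of the first step of glycerolipid synthesis, and the site 161156 bp from it (chr10:112054081-112054327) had a pileup of 37 in each siCtrl library. FGF3 encodes a fibroblast growth factor, and its site, chr11:69891614-69891861, had 43 and 31. MED13L belongs to the kinase module of Mediator, and the site 112880 bp upstream (chr12:116390458-116390709) had 36 and 33. PKDCC, which encodes a secreted protein kinase, had 36 and 33 at chr2:42010819-42011060, and MAN1A1, a Golgi mannosidase gene, had 35 and 32 at chr6:120141687-120141946, 792062 bp upstream.

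Most single-library sites were weak. Their median fold was 4.47 in siCtrl replicate 2, 4.17 in siCtrl replicate 3, 4.06 in siCDK12 replicate 3 and 4.14 in siCDK12 replicate 4, and 15 of 92, 4 of 25, 0 of 13 and 0 of 19 reached a -log10 q of 5. The highest -log10 q was 28.3 in siCtrl replicate 2, near PARD6B, and 12.8 in siCtrl replicate 3, near LYZL1. No ERE-bearing site outside genes found in siCDK12 alone reached 5, so none of these was strong. The highest -log10 q among them was 3.43, at a site near ZNF217 with a pileup of 75 on a local background 29.1 times that of the genome, and 3.19, near RAPGEF4 with a pileup of 11. The sites found in siCtrl replicate 2 and siCDK12 replicate 3 lay near SULF2 (pileups 24 and 35) and GRM7 (9 and 10), and are the only ones listed in both conditions where a siCDK12 pileup exceeded a siCtrl pileup. Next to the q-value threshold of 0.05, the weakest peak kept had a -log10 q of 1.32, and the strongest of 41 ERE-bearing peaks outside genes left out had 1.29.

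A few textbook estrogen-regulated genes were nearest to an ERE-bearing site outside genes. Of 52 such genes, 6 were the nearest protein-coding gene of at least 1 (11.5%, 4.35 to 23.4), against 28 for any of the 13519 sites. KRT13, a keratin gene, had a site 1165 bp upstream (chr17:41506761-41506987) with pileups of 25 and 20 in siCtrl and none listed in siCDK12. CCND1, which encodes the cell cycle regulator cyclin D1, had one 125668 bp upstream (chr11:69515388-69515559) with 14 and 13, also in siCtrl alone. The CCND1 site was weak, with folds of 3.92 and 3.62 and a highest -log10 q of 2.44. MYC was given above.

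The other 3 genes of the list had sites in 1 library. CTSD, which encodes the lysosomal protease cathepsin D, had a site 8186 bp upstream with a pileup of 16 in siCtrl replicate 2. MREG, a melanosome transport gene, had a pair inside the lncRNA gene LINC00607 with a pileup of 8 each, one in each siCtrl library. ZNF217, which encodes an oncogenic zinc finger protein, had the site in siCDK12 replicate 3 named above. Of 12 luminal transcription factor genes, only GRHL2, a grainyhead factor of epithelial cells, was nearest to one, in siCtrl replicate 2 with a pileup of 30, against 7 for any site outside protein-coding genes. Nearest distance does not show which gene a site acts on.

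The sites lay far from promoters. The median distance to the nearest protein-coding start was 87294.5 bp over the 232, 54179 bp over the 83 with 2 or more libraries and 30536 bp over the 25 with 3 or 4. All 13519 sites outside protein-coding genes had 141817 bp, and the 676 of these with 2 or more libraries had 108348 bp. There were 5 within 1000 bp of a protein-coding start and 108 at 100 kb or more. The body of a lncRNA gene held 72 (31.0%, 25.1 to 37.4), a share near the 29.6% of all sites outside protein-coding genes, and 154 lay in no gene body of any type. Every chromosome from 1 to 22 and X held at least 3, with the most, 20, on chromosome 2.

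Pairs of ERE-bearing sites within 100 kb of each other numbered 12. The closest, after the MPPED1 pair, were 4954 bp apart near ACTL7B (chr9:108478800-108479052 and chr9:108483778-108484034), where both had peaks in both siCtrl libraries alone, with pileups of 19 and 18 and of 16 and 20. In the keratin cluster on chromosome 17, a site near KRT37 with siCtrl pileups of 44 and 27 and a siCDK12 replicate 4 pileup of 16 lay 90735 bp from the KRT13 site. Sites of a pair share their surroundings and are not independent. At IGHG4 and IGHGP, which lay 43747 bp apart, and at HLA-DRB6 and TBC1D3P1-DHX40P1, near-identical copies of the sequence may exist. The reads could then belong to either copy, so these sites are uncertain. The likeness of copies was not measured at these or other sites. The IGHG4 site, nearest to TMEM121, is among the sites with 3 libraries above and has a perfect element.

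Other motifs were counted within 100 bp of the summit on both strands, with the element itself masked. An AGGTCA half-site, which can be part of a second element, was present at 83 of 232 sites (35.8%, 29.6 to 42.3), at 46 of 83 with 2 or more libraries (55.4%, 44.1 to 66.3) and at 37 of 149 with 1 (24.8%, 18.1 to 32.6). ERE-bearing sites inside genes held it in 31.3%, sites outside genes without an element in 18.3% (17.6 to 18.9) and all sites in 18.7%. Among sites in 2 or more libraries, it was in 40.8% (31.0 to 51.2) of those inside genes with an element and in 30.4% (26.7 to 34.2) of those outside genes without one. The interval of the last group lies below that of the ERE-bearing sites outside genes, and that of the former overlaps it.

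Motifs of factors that often bind near ER gave shares close to those of all sites, which lay within the interval of each. A forkhead motif (TGTTTAC or TATTTAC) was in 9 of 232 sites (3.88%, 1.79 to 7.24), against 3.23% of all sites and 7.33% of windows 1000 bp downstream of the same sites. A GATA motif (AGATAA) was in 18 (7.76%, 4.66 to 12.0), against 7.27% of all sites and 13.4% of those windows. An AP-1 motif (TGANTCA) was in 15 (6.47%, 3.66 to 10.4), against 6.47% of all sites and 5.60% of those windows. The median GC content was 50.7%, against 49.3% at sites outside genes without an element. A match to these letters is no evidence of binding by the factor, and no match does not show its absence.

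A raised local background went along with listing by several libraries. The background was over 3 times that of the genome in at least 1 library listing the site at 12 of 149 sites with 1 library (8.05%, 4.23 to 13.6), 45 of 83 with 2 or more (54.2%, 42.9 to 65.2) and 19 of 25 with 3 or 4. A site in more libraries has more values that can pass that mark. It reached 37.0 times near PARD6B on chromosome 20, where siCtrl replicate 2 alone listed a peak, with a pileup of 133 and a fold of 3.49. How much this background contributed to the listing was not tested.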

How the data were processed

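Peak lists of the 4 ER libraries were analysed. Inputs, with no peak list, and reads were not analysed here. Per the labels and methods, the authors checked reads with FastQC, aligned them to GRCh38 with BWA and used MACS2 on each library separately. The deposited fold is the ratio of pileup plus 1 over local background plus 1, the significance deposited for the summit is a −log10 p-value and a −log10 q-value, and the deposited score was not used. No value is normalized between libraries. The authors' differential test with DiffBind and DESeq2 needs reads and was not repeated.

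Peaks with a q-value under 0.05, the threshold stated in the methods, were kept, which left out 20.4% to 28.0% of each deposited list. Pileups were solved from fold and p-value with a tolerance of 0.003, which gave whole fragments for over 99.9% of peaks. They are on the scale of each library's own background of 1.01 to 1.23 fragments. Gene bodies and starts came from GENCODE release 44. Python 3.11.15, NumPy 2.4.6, SciPy 1.17.1, pysam 0.24.0 and matplotlib 3.10.9 were used. The element search, the merging of peaks and the solving of pileups were tested on simulated data, and the other steps were not. Intervals are exact (Clopper-Pearson) at 95%, and upper limits of a share of 0 are their upper bounds. Sites named are those with a peak in all 4 libraries, the 10 siCtrl-only sites highest by mean rank in siCtrl, and sites in 2 or more libraries nearest to a listed gene. Others are named as chosen after their values were seen, also among neighbors and single-library sites. The sites, lists and rules were chosen with earlier results of these data known. P-values measure only the spread between these libraries.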

Additional observations from a re-analysis of the deposited data

How the results depend on the processing

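The ratio of ERE-bearing sites per library, siCDK12 over siCtrl, stayed below 1 under all 11 alternatives and without each library (0.0909 to 0.332). The pileup ratio at sites with a peak in all libraries was recomputed without each library (0.318 to 0.394), from the deposited fold (0.367) and in no gene body of any type (0.338), and could not be with a perfect element, which no site in all 4 libraries had. The other alternatives were not run for it. The number of sites was 232. It was 120 at a -log10 q of at least 3, 96 at 5, 110 at a fold of at least 5, 29 with a perfect element, 154 in no gene body of any type, and 139 to 219 without 1 library. Sites in both siCtrl libraries and neither siCDK12 library, 56, numbered 9 with a perfect element and 63 to 148 without 1 library, where a single library then stands for its condition. Sites in both siCDK12 libraries and neither siCtrl library, 0, numbered 1 with all deposited peaks, 1 with the element within 200 bp, and 0 to 19 without 1 library.

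In the alternatives for the lookup of peaks, a level of -log10 q or fold was asked of the searched peaks too. In the Results, the level of 5 was asked of the chosen peaks alone. The share of siCtrl replicate 2 peaks found in siCDK12 minus that found in siCtrl replicate 3 was -35.7 percentage points. It was -53.7 at a -log10 q of at least 3, -56.8 at 5, -47.9 at a fold of at least 5, -50.0 with a perfect element, -42.2 with the element within 50 bp, -46.6 with equal numbers of peaks, -59.6 from siCtrl replicate 3 and -21.4 from siCDK12 replicate 4. The element share at sites outside genes over that of the windows beside them, 4.64, was 13.3 at a -log10 q of at least 3, 24.0 at 5 and 29.0 with a perfect element (2 windows). Motif shares move with the length searched. Within 50 and 200 bp, forkhead was in 1.29% and 9.48%, GATA in 3.88% and 16.4%, the half-site in 27.6% and 49.1%, and AP-1 in 12.9% within 200 bp. The other 63 values under an alternative were counted as unchanged. For the ratio of sites per library and the pileup ratio this asked only that the ratio stay below 1, whatever its size. The rest moved by less than the set limits. No paired analysis was possible because replicate 3 is the sole number found under both siCtrl and siCDK12. The 2 libraries per condition and the unknown number of reads limit every comparison.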
